A study of Mus musculus with 4 samples.

Results

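Long intergenic noncoding RNA (lincRNA) genes make long transcripts that are not translated, and most are transcribed by RNA polymerase II from promoters of their own. The promoters described here are those of genes typed lincRNA in the GENCODE vM1 annotation of the mouse genome build mm9 (NCBIM37). Each transcription start site (TSS) was extended by 1000 bp on both sides, and a TSS at most 1000 bp from a protein-coding TSS was left out, since a region there could belong to either promoter. Of 2018 lincRNA TSS, 932 were left out in this way. The remaining 1086 TSS windows belong to 727 of 1273 lincRNA genes, and the other 546 genes lost every TSS. A further 83 of the 727 genes lost some of their TSS.

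Open chromatin of NMuMG cells, an established epithelial line from normal mouse mammary gland, was profiled by ATAC-seq, in which the Tn5 transposase cuts DNA that is not wrapped in nucleosomes. There were 4 samples, 1 per group: a vehicle and a TGFβ1 sample taken after 2 h in complete medium, and a vehicle and a TGFβ1 sample taken after 10 min in cells that had been kept for 6 h without serum and insulin. The dose of TGFβ1, written TGFβ here, was 5 ng per ml throughout. A characteristics field of the TGFβ sample of the second pair gives the longer time, and its title was followed. The data were 3 peak lists. Each sample in complete medium had its own list, whereas the labels of both starved samples point to the same list, here the 10 min list, so the treatments of the starved pair could not be compared. The lists carry no read counts, and the read totals per library that accompany the study were not used here. A condition had only 1 list, so differences between conditions are given as counts without a test. Intervals in parentheses are 95% Wilson intervals, which cover counting error only, and genes that are neighbours or share a region are not independent.

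After merging, there were 19648 regions for vehicle, 38532 for TGFβ and 26732 at 10 min. The longer a list, the more promoters it can mark, and this difference in length moves with every count below. Of 5 epithelial marker genes, Krt8 and Krt18, the simple epithelial keratins, had a region at a TSS in all 3 lists. Cdh1, encoding E-cadherin, had one in the 10 min list only, and Epcam and Cldn3 had none. Of 5 genes of other cell types, Ptprc, Cd3e, Pecam1 and Alb had none, and Syn1 had one in the TGFβ list. The term intergenic holds in part: 399 of the 727 lincRNA genes overlap the body of an annotated protein-coding gene. In the RefSeq table (GRCm38.p6), which was used for names and gene types only, 341 matched a gene typed lncRNA, 18 a protein-coding gene, and 344 had no match.

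LincRNAs have been linked to the control of chromatin, splicing and neighbouring genes, and some act mainly as carriers of small RNAs in their introns. Several are known for roles in X inactivation, imprinting, growth control and development. The cytokine TGFβ makes mammary epithelial cells of this kind stop dividing and take on mesenchymal features. It signals through SMAD proteins, which bind DNA with partners such as AP-1, a dimer of JUN, FOS or ATF proteins. The 5 promoters that stand for different patterns are printed first. Each runs from 250 bp upstream to 50 bp downstream of a TSS, on the strand of the gene. None of the 5 genes overlaps a protein-coding gene. Capitals mark matches, on either strand, to the AP-1 word TGACTCA and to GGGCGG, the GC box bound by SP factors. Neither word contains the other.

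1700020I14Rik (Oip5os1 in RefSeq), chr2:119419783-119420082, plus strand, region in all 3 lists: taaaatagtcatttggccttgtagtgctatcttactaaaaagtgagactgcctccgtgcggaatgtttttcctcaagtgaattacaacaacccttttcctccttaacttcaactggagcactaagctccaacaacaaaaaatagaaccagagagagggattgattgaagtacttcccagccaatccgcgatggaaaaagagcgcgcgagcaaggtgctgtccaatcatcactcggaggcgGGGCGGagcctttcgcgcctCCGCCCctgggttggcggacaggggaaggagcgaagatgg
Dleu2, chr14:62301113-62301412, minus strand, region in all 3 lists: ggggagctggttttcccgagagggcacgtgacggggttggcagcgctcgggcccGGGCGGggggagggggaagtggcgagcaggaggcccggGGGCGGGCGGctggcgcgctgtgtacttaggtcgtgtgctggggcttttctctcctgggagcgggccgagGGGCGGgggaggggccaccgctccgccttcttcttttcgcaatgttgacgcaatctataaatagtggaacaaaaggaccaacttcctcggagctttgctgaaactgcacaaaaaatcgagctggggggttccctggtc
D730003I15Rik, chr1:193048103-193048402, plus strand, region in the TGFβ and 10 min lists: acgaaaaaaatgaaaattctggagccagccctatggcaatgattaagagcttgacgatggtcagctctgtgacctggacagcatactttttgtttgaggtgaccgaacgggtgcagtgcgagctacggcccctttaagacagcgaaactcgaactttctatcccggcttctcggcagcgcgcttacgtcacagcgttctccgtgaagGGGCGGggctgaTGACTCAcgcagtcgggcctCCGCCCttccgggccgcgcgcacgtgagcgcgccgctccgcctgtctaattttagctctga
Gm16348, chr8:42303243-42303542, plus strand, region in the TGFβ list only: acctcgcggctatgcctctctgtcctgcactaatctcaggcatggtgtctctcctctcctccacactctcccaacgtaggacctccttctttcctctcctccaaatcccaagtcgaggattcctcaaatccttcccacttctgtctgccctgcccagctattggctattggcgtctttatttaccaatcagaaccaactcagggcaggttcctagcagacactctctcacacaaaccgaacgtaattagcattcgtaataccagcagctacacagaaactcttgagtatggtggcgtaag
Gm16197 (Trp53cor1 in RefSeq), chr17:29215857-29216156, minus strand, region in the 10 min list only: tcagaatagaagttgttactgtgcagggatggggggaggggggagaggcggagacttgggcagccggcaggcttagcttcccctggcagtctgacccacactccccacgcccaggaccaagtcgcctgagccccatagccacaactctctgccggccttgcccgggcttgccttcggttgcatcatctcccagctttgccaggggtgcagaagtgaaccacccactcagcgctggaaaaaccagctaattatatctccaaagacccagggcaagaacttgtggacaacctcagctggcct

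The promoters of 1700020I14Rik and Dleu2 hold 2 and 4 GC boxes and no AP-1 word. That of D730003I15Rik holds an AP-1 word that starts 31 bp upstream of the TSS, between GC boxes that start 43 and 11 bp upstream. The promoters of Gm16348 and Gm16197 hold neither word. Such matches describe the sequence and do not show that a factor was bound.

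The first question was which lincRNA promoters were accessible. A region overlapped a TSS window of 132 of the 727 genes in the vehicle list, which is 18.2% (15.5 to 21.1). In the TGFβ list 190 genes had a region, 26.1% (23.1 to 29.4), and in the 10 min list 169 had one, 23.2% (20.3 to 26.5). Counted in the same way over all 37252 annotated genes of chromosomes 1 to 19 and X, without the exclusion, the shares were 27.5% with vehicle, 32.6% with TGFβ and 31.4% at 10 min. All 3 lists held a region at 122 lincRNA genes, 16.8% (14.2 to 19.7), against 26.7% of all genes. No list held one at 519 genes, 71.4% (68.0 to 74.6). In each list most of all annotated genes also lacked a region. By window, no list held one at 751 of 1086 lincRNA windows and 38727 of 70018 protein-coding windows, the latter without the exclusion. The order depends on the exclusion: without it, as for all genes, lincRNA genes reached 37.9%, 46.3% and 44.0%, above all genes in each list.

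Regions were found at 41.0% of protein-coding genes with vehicle, 47.6% with TGFβ and 46.3% at 10 min. That class has no exclusion. Genes typed processed transcript, under the exclusion used for lincRNA genes, had regions at 5.22%, 9.40% and 7.52%. Pseudogenes under that exclusion had them at 1.01%, 2.06% and 1.41%. The 546 lincRNA genes whose TSS all lie near a protein-coding TSS had the highest shares, 58.2% with vehicle (54.1 to 62.3), 67.0% with TGFβ (63.0 to 70.8) and 65.2% at 10 min (61.1 to 69.1). Their windows contain protein-coding promoters, so whose promoter is open there cannot be told apart.

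**Figure D1:**
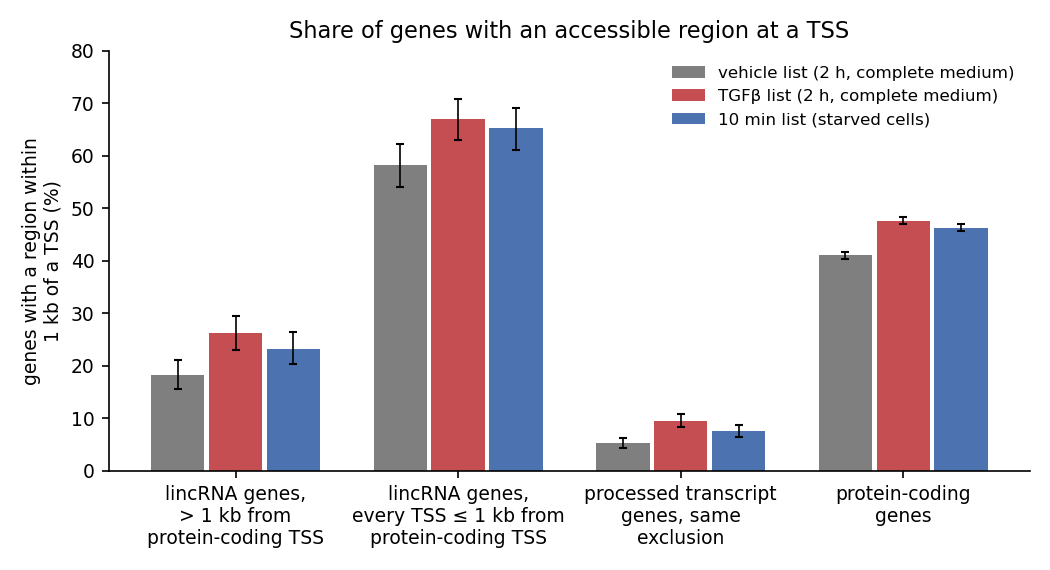
Share of genes (%, y axis) with a region within 1 kb of a TSS in 4 gene classes, for the vehicle (grey), TGFβ (red) and 10 min (blue) lists; error bars are 95% Wilson intervals for counting error. LincRNA genes away from protein-coding TSS reach 18.2%, 26.1% and 23.2%, above processed transcript genes under the same exclusion in each list; protein-coding genes are counted without it.

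The share with a region was lower just beyond the exclusion limit of 1000 bp than just before it, with intervals that overlap. In the TGFβ list 56.8% of the 162 TSS left out at over 500 bp from a protein-coding TSS had a region (49.1 to 64.2), and 42.4% of the 66 TSS kept in the 500 bp beyond the limit had one (31.2 to 54.4). In the next 500 bp the share was 17.9% of 56 TSS (10.0 to 29.8), and beyond 2000 bp it was 27.9% of 964 (25.2 to 30.8). Some of the calls are shared with a neighbour: the region of 16 genes with vehicle, 21 with TGFβ and 22 at 10 min also covered a protein-coding TSS. Without regions within 1000 bp of a protein-coding TSS the shares of lincRNA genes were 15.8%, 23.4% and 20.2%.

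The accessible regions were centred near the TSS. The share of TSS under a region was highest 50 bp upstream of the TSS in each list, at 14.5% with vehicle, 20.3% with TGFβ and 19.5% at 10 min. At 4000 to 5000 bp from the TSS the median share was 0.645%, 1.47% and 1.15%. The region lay over the TSS itself for 91 of 132 genes with vehicle, 126 of 190 with TGFβ and 126 of 169 at 10 min. Median widths at lincRNA TSS were 542 bp with vehicle, 570 bp with TGFβ and 758 bp at 10 min, against 568, 614 and 773 bp at protein-coding TSS. The widest region in the complete-medium lists, at Gm10516, was 2050 bp with vehicle and 2136 bp with TGFβ and also covered the TSS of Rcor3. A smaller share of lincRNA regions reached the highest score of 1000, the cap of the authors' scaled measure of reproducibility. The share at the cap was 44.6% against 53.6% at protein-coding TSS with vehicle, 54.5% against 66.5% with TGFβ and 37.5% against 54.3% at 10 min.

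**Figure D2:**
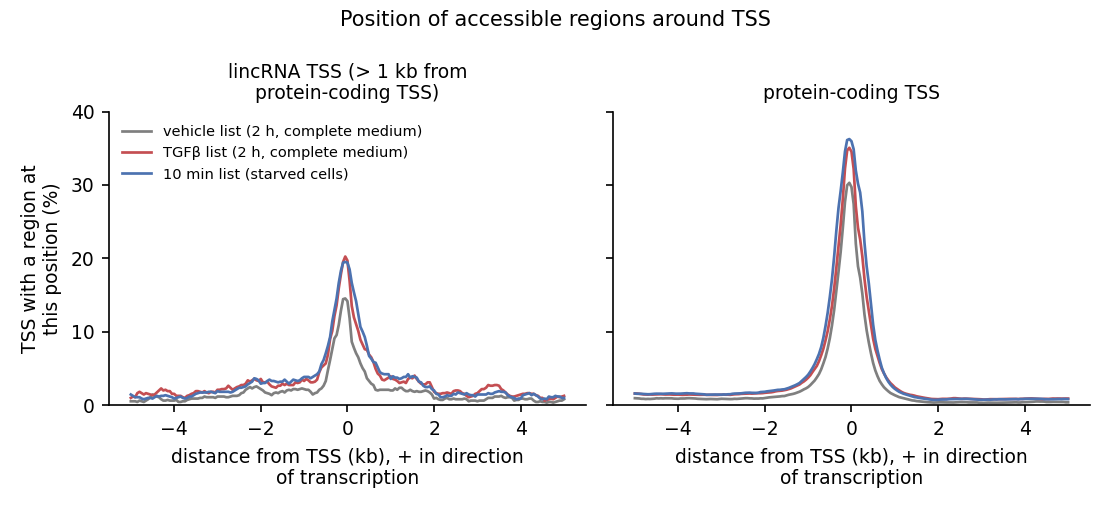
Share of TSS (%, y axis) that lie under a region at each distance from the TSS (kb, x axis, positive in the direction of transcription), for 1086 lincRNA TSS (left) and protein-coding TSS (right); lines are the vehicle (grey), TGFβ (red) and 10 min (blue) lists. In each list the lincRNA curve peaks 50 bp upstream of the TSS, at 14.5%, 20.3% and 19.5%.

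Well-studied lincRNAs were grouped by role, in groups of 1 to 8 genes. A list of 80 known symbols held 34 of the 727 genes. Of these 16 had a region with vehicle, 16 with TGFβ and 17 at 10 min, beside 18.2%, 26.1% and 23.2% of all 727. Hosts of small nucleolar RNAs (snoRNAs), which guide chemical modification of ribosomal RNA, nearly all had a region: 6 of 7 had a region in the vehicle list and 7 of 7 in the other lists. Snhg5, Snhg15 and Gas5 reached the score cap in each list. At Snhg5 the region was 627 bp wide with vehicle, 893 bp with TGFβ and 1156 bp at 10 min. The region counted for Gas5 lay upstream of the kept TSS and covered a protein-coding TSS, since Zbtb37 starts 1171 bp away on the opposite strand. In each list that region also covered the 5′ end of Gas5 itself, position 162964553 of chromosome 1, which the exclusion left out. Snhg7 was the exception among hosts, with a region of 226 bp in the TGFβ list (score 1000) and 236 bp in the 10 min list (score 904) and none in the vehicle list, where the nearest region was 35513 bp away. Over all lincRNA genes whose body holds a snoRNA gene on the same strand, 12 of 16 had a region in the vehicle list, 75.0% (50.5 to 89.8), and 13 of 16 in each of the others. Genes without a snoRNA had one in 16.9%, 24.9% and 21.9%. Several of these hosts lie near each other on chromosome 9, and 9430037G07Rik and Gm17683 share 1 region.

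Of 4 lincRNAs of the X inactivation centre, 3 had a region in the vehicle list. Ftx (B230206F22Rik in the annotation) and Jpx (Enox), both positive regulators of Xist, had regions in all 3 lists. Xist, the RNA that coats the inactive X, had a region over its TSS of 166 bp in the vehicle list (score 648) and of 2009 bp in the TGFβ list (score 1000). In the 10 min list the nearest region was 1380 bp from its TSS, 380 bp outside the window. Tsix, the antisense RNA of Xist, had none. Firre (6720401G13Rik), a nuclear RNA also made from the X chromosome, had regions of 709, 836 and 758 bp for vehicle, TGFβ and 10 min, all with the score of 1000.

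Of 5 imprinted lincRNAs, 3 had no region in any list, beside 71.4% of all 727 genes. Meg3, Rian and Mirg, which lie in the imprinted Dlk1-Dio3 domain, had no region in any list. Airn, the imprinted antisense RNA of Igf2r, had a region of 1650 bp in the TGFβ list (score 708) and of 1135 bp in the 10 min list (score 686), while the nearest vehicle region was 25826 bp away. Nespas, antisense within the Gnas locus, showed the opposite: 425 bp in the vehicle list (score 692), 287 bp in the 10 min list (score 836) and no TGFβ region within 31908 bp. Of 8 developmental lincRNAs, 7 had no region in any list, again beside 71.4% of all 727 genes. They were Hottip, next to the Hoxa cluster, Fendrr, next to Foxf1a, Sox2ot, Evx1os and Dlx1as, which overlap or adjoin the homeobox or Sox genes in their names, the eye and forebrain RNA Six3os1, and Rmst, known from neural differentiation. The 8th, Morrbid (Gm14005), a regulator of the survival of short-lived myeloid cells, had regions of 382, 1484 and 1448 bp for vehicle, TGFβ and 10 min.

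Of 6 lincRNAs linked to growth and p53, Pvt1, downstream of Myc, and 1700020I14Rik had a region in each list. The Pvt1 regions were 395, 178 and 365 bp wide with scores of 620, 672 and 763. The 1700020I14Rik regions, over the GC boxes printed above, were 698, 477 and 731 bp wide, all at the cap. Gm16197 (Trp53cor1, also known as lincRNA-p21) lies 12018 bp from Cdkn1a, the p21 cell cycle inhibitor. It had a region of 355 bp over its TSS in the 10 min list (score 727), and the nearest regions were 14583 bp away in the vehicle list and 5879 bp in the TGFβ list. At its kept TSS, Tug1 had a region in the vehicle list only, of 1366 bp. That region covers a protein-coding TSS. It also covers the 5′ end of Tug1 itself, position 3548815 of chromosome 11, which the exclusion left out. The nearest TGFβ and 10 min regions were 1279 and 1239 bp from a kept TSS, just outside the window. Whether they reach the start that was left out is not given here, so the vehicle-only call does not describe that start. Miat and Meg3 had none.

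**Figure D3:**
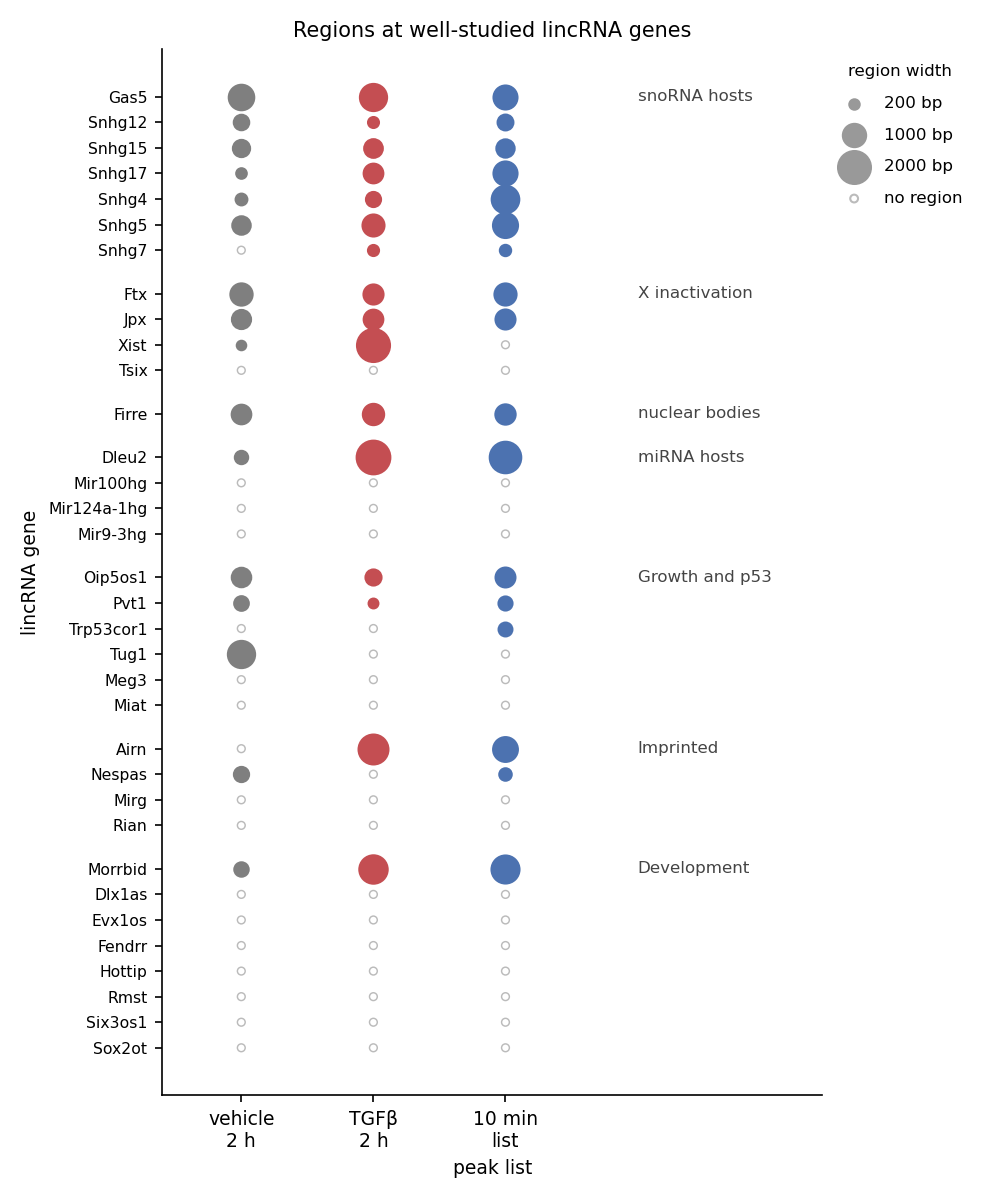
Regions at the 34 well-studied lincRNA genes (rows, grouped by role) in the vehicle (grey), TGFβ (red) and 10 min (blue) lists (columns); a filled circle is a region, its area proportional to the region's width in bp, and an open circle is no region within 1 kb of a TSS. Where a gene has several regions the one with the highest score is drawn, which for Dleu2 lies at another TSS with vehicle (327 bp) than with TGFβ and at 10 min. Hosts of snoRNAs are filled in nearly all lists. Of 8 developmental lincRNAs 7 are open circles throughout, beside 519 of all 727 lincRNA genes with no region in any list.

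Hosts of microRNAs (miRNAs), which repress messenger RNAs, were counted in the same way. Of 27 lincRNA genes with a miRNA gene in their body on the same strand, 6 had a region with vehicle, 9 with TGFβ and 10 at 10 min. These are 22.2% (10.6 to 40.8), 33.3% (18.6 to 52.2) and 37.0% (21.5 to 55.8), and the intervals overlap those of the 700 other genes, 15.3 to 21.02%, 22.8 to 29.2% and 19.8 to 25.96%. A pair of hosts open in all 3 lists carry miRNA pairs with a common seed, the bases 2 to 8 that pair with targets, shown here in capitals (RefSeq, GRCm38.p6). A330023F24Rik is the host of Mir29b-2 and Mir29c, whose mature miRNAs repress collagens and other matrix genes. 1700016P03Rik is the host of Mir212 and Mir132, which are induced by CREB in neurons.

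mmu-miR-29b-3p: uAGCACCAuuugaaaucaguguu
mmu-miR-29c-3p: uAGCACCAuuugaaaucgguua
mmu-miR-132-3p: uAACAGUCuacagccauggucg
mmu-miR-212-3p: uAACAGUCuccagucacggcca

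At A330023F24Rik the region was 797 bp wide with vehicle (score 942), 540 bp with TGFβ and 1064 bp at 10 min (both at the score cap), over the TSS in each. At 1700016P03Rik the regions were 640, 755 and 798 bp wide and lay 512, 341 and 512 bp downstream of the TSS. Dleu2, the host of the miR-15a and miR-16-1 cluster, had regions at a pair of separate TSS in each list. At the TSS printed above the region was 603 bp with vehicle (score 767), 2094 bp with TGFβ (score 1000) and 1832 bp at 10 min (score 840), over the TSS in each. At the other TSS, at position 62267650 of chromosome 14, the regions were 327, 1158 and 758 bp wide with scores of 819, 877 and 750. D030055H07Rik, the host of Mir135a-1, had regions of 204 bp with TGFβ and 215 bp at 10 min. They lay 584 and 594 bp upstream of the nearest of its 3 kept TSS, inside the gene body. The most 5′ TSS is at position 106051018 of chromosome 9, and the regions start at 106056496 and 106056475. The nearest vehicle region was 14404 bp from a kept TSS. The hosts of Mir100, Mir124a-1 and Mir9-3 on the well-studied list had none.

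The comparison of vehicle with TGFβ in complete medium asked which lincRNA promoters were called after treatment. A region stood in the TGFβ list and not in the vehicle list at 62 genes, 8.53% (6.71 to 10.8), against 5.50% of all annotated genes and 7.24% of protein-coding genes (6.91 to 7.59). The opposite, vehicle and not TGFβ, held for 4 genes, 0.550% (0.214 to 1.41), against 0.462% of all genes. Those 4 were Tug1, counted without its 5′ start as described above, Nespas, Gm3510 and Gm17589. At Gm3510 the nearest TGFβ region was 1011 bp from the TSS, 11 bp outside the window. Both counts changed when the lists were cut to 1 length. With the TGFβ and 10 min lists reduced by score to the 19648 regions of the vehicle list, 125 lincRNA genes had a TGFβ region, 17.2% (14.6 to 20.1), beside the 18.2% of the vehicle list. In that setting 17 genes, 2.34%, had a region in the TGFβ and not in the vehicle list and 24, 3.30%, the opposite. Over all annotated genes these shares were 1.69% and 3.51%. Protein-coding genes went the same way, at 2.26% and 5.14%. With lists of 1 length the larger number of lincRNA promoters called after TGFβ was no longer seen. The cut takes the lowest-scored regions out of the longer lists by design, so it cannot separate list length from a general gain in regions.

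The 62 genes split into 32 with a region in the TGFβ list only and 30 with one in the 10 min list too, 48.4% (36.4 to 60.6). Of all annotated genes called with TGFβ and not with vehicle, 60.8% (58.7 to 62.9) were also in the 10 min list, and of protein-coding genes 64.2% (61.9 to 66.5). Regions found only in the TGFβ list were narrow and scored low: their median width was 282 bp and their median score 718, 1 of 32 reached the cap, and 10 of 32 lay over the TSS. Where the 10 min list had a region as well, the median width in the TGFβ list was 484 bp and the median score 884, 8 of 30 reached the cap, and 20 of 30 lay over the TSS. At the 122 genes called in all 3 lists the same values were 688 bp and 1000, with 97 at the cap and 92 over the TSS. Over all regions of the TGFβ list the median width was 379 bp, and 41.4% were at the cap. Widths and scores of protein-coding TSS regions found only in the TGFβ list are not given here, so the low values cannot be called particular to lincRNA genes. A vehicle region just outside the window was rare among the 62 genes. The nearest lay within 2000 bp of the TSS at 5 genes, within 5000 bp at 14 and beyond 10000 bp at 42.

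Read as a share of what the TGFβ list held, 62 of 190 lincRNA genes lacked a vehicle region, 32.6% (26.4 to 39.6), against 15.2% of the protein-coding genes with a TGFβ region. By regions, 64 of 191 TGFβ regions at lincRNA TSS did not overlap a vehicle region, 33.5% (27.2 to 40.5). At protein-coding TSS the share was 20.1% (19.3 to 20.8), and at regions near neither kind of TSS it was 64.4% (63.9 to 65.0). The lincRNA value lay between these. Conversely 153 of the 191 regions overlapped a region of the 10 min list, 80.1% (73.9 to 85.1), against 89.9% at protein-coding TSS and 48.5% elsewhere.

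Among the genes called with TGFβ and not with vehicle, D730003I15Rik lies next to Atf3, a TGFβ-induced member of the AP-1 family, 41134 bp from its TSS. Its region with TGFβ, chr1:193048191-193048461, was 271 bp wide and that at 10 min 950 bp, both over the TSS with the score of 1000. The AP-1 word printed above lies inside. The nearest vehicle region was 2096 bp from the TSS. Also named by their score were 2900052L18Rik, with regions of 1543 bp with TGFβ and 1712 bp at 10 min, and Gm16912, with 861 bp and 1227 bp. At both the region covers a protein-coding TSS, that of Bahcc1 for the former and of the kinase gene Pim1 for the latter, and a vehicle region lay 46 and 95 bp outside the window. With a region in the TGFβ list only, Gm13684 (499 bp, score 1000), Gm17433 (584 bp, score 954) and Gm16348 (307 bp, score 948) ranked highest. The Gm16348 region lay over the TSS. The other regions lay 719 and 430 bp downstream, inside the bodies of Itgav and Tbc1d16. The nearest vehicle regions were 15071, 14430 and 21236 bp away from these 3 TSS.

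Of 84 genes of the TGFβ response and of mammary epithelium on a list, some were the nearest protein-coding neighbour of 22 lincRNA genes, of which 4 had a region with vehicle, 8 with TGFβ and 7 at 10 min, beside 18.2%, 26.1% and 23.2% of all 727. Within 50 kb there were 12 pairs, and 5 of these lincRNA genes had a region in any list. Besides D730003I15Rik at Atf3 and Gm16197 at Cdkn1a, 1110036E04Rik lies 27770 bp from Smad6, an inhibitor of the pathway. It had regions of 467 bp with vehicle, 1036 bp with TGFβ and 881 bp at 10 min, with scores of 875, 1000 and 966. Gm16724, 24532 bp from the SMAD corepressor gene Tgif1, had a region of 261 bp in the TGFβ list only (score 628). Gm17589, 9275 bp from the AP-1 gene Fosb, had one of 151 bp in the vehicle list (score 574), the narrowest width the lists could hold being 150 bp, and one of 700 bp in the 10 min list (score 961).

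The 10 min list held a region at 14 lincRNA genes that had none in either complete-medium list, 1.93% (1.15 to 3.21), against 1.10% of all genes. By score, Mir706, Gdap10 and Gm16639 led, with regions of 2928, 1356 and 745 bp, all at the cap. The first covers the TSS of Wnk1 and the second that of Nampt, so they also belong to protein-coding promoters. The nearest vehicle and TGFβ regions lay outside the window by 601 and 590 bp at Mir706, 315 and 241 bp at Gdap10 and 60 and 88 bp at Gm16639. The reverse, regions in both complete-medium lists and not at 10 min, held for 6 genes, 0.825% (0.379 to 1.79), against 0.395% of all genes. Xist was one, and 2010300F17Rik another, with a region of 312 bp in the vehicle list (score 623) and 613 bp in the TGFβ list (score 1000). The third named, Gm17701, had a 10 min region 1031 bp from its TSS.

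The share with a region was lower where a lincRNA gene overlapped a protein-coding gene. In the TGFβ list the share with a region was 26.7% of 217 genes at 1 to 5 kb from the nearest protein-coding TSS (21.3 to 33.0), 25.6% of 347 at 5 to 50 kb (21.3 to 30.5) and 26.4% of 163 farther away (20.2 to 33.6). These intervals overlap, although the 500 bp next to the exclusion limit had the higher share given above. The 399 lincRNA genes that overlap a protein-coding gene had a TGFβ region in 18.8% (15.3 to 22.9), and the other 328 in 35.1% (30.1 to 40.4). With vehicle the values were 11.03% and 26.8%, and at 10 min 15.04% and 33.2%. By orientation to the nearest protein-coding TSS, 32.8% of genes on the same strand (26.6 to 39.7), 28.7% of divergent (23.2 to 34.9) and 19.9% of convergent genes (15.8 to 24.7) had a TGFβ region. Genes with 3 or more annotated transcripts had one in 41.0% (32.5 to 50.1) and genes with 1 transcript in 22.0% (18.6 to 25.8). More transcripts give a gene more windows, and counted by window the shares were 20.7% with vehicle, 28.3% with TGFβ and 26.0% at 10 min. By RefSeq match, a TGFβ region was found at 36.1% of the 341 genes typed lncRNA there (31.2 to 41.3). It was found at 14.8% of the 344 without a match (11.5 to 18.97) and 44.4% of the 18 typed protein-coding (24.6 to 66.3). The vehicle shares were 26.4%, 9.01% and 16.7%. Of the 62 genes called with TGFβ and not with vehicle, 35 were typed lncRNA, 21 had no match and 5 were typed protein-coding.

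Accessible lincRNA promoters were richer in CpG. CpG islands mark promoters that tend to stay open, and the ratio of observed to expected CpG is about 1 where CpG has not been lost. Over 500 bp on both sides of the TSS the median ratio was 0.321 for all 1086 lincRNA windows and 0.460 for protein-coding windows. It was 0.602 for the 208 windows with a region in all 3 lists, 0.379 for the 91 windows in the TGFβ and not the vehicle list, and 0.276 for the 751 windows in no list. For named genes the largest ratio over the kept TSS of a gene was taken, which need not be that of a promoter printed above. The highest was 1.05 at Snhg5. The largest ratio was 0.861 at 1700020I14Rik, 0.992 at Dleu2, 0.679 at D730003I15Rik and 0.380 at Gm16348. A ratio of 0.6 or more, the usual cut for a CpG island, was reached by 17.3% of all lincRNA windows, by 104 of the 208 in all 3 lists and by 8.39% of those in none.

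LincRNA and protein-coding windows were then compared within bins of this ratio. From a ratio of 0.8 on the vehicle list held a region at 56.5% of 46 lincRNA windows (42.2 to 69.8) and 77.3% of protein-coding windows (76.6 to 78.0). With a ratio of 0.6 to 0.8 it held one at 57.0% of 142 lincRNA windows (48.8 to 64.9) and 67.8% of protein-coding windows (67.0 to 68.5). With a ratio of 0.2 to 0.4 it held one at 10.6% of 424 lincRNA windows (8.03 to 13.9) and 7.10% of protein-coding windows (6.74 to 7.49). With a ratio of 0.4 to 0.6 it held one at 23.9% of 230 lincRNA windows (18.9 to 29.8) and 35.85% of protein-coding windows (34.9 to 36.8). So in the vehicle list lincRNA windows lay below protein-coding ones from a ratio of 0.4 on and above them at smaller ratios. Protein-coding windows were counted without the exclusion. The share of TGFβ-list windows without a vehicle region fell with CpG in both classes. It was 45.7% (36.5 to 55.2) of lincRNA windows with a ratio below 0.4, 33.3% (23.9 to 44.4) at 0.4 to 0.6 and 13.7% (8.74 to 20.9) from 0.6 on. For protein-coding windows it was 47.8%, 24.0% and 10.5%, inside the lincRNA intervals in 3 of 3 bins.

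**Figure D4:**
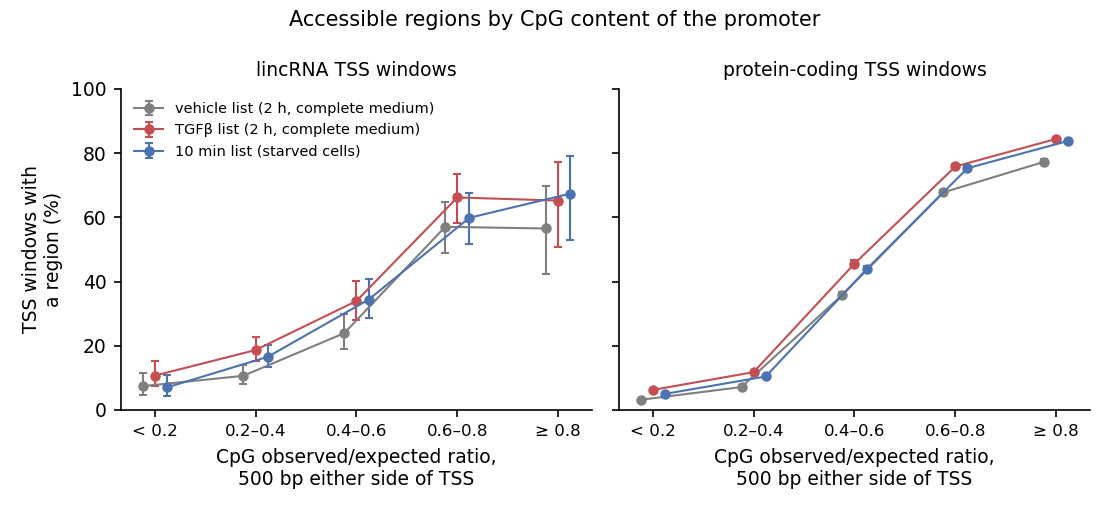
Share of TSS windows with a region (%, y axis) by the CpG observed to expected ratio of the promoter (x axis, 5 bins) for lincRNA (left) and protein-coding TSS (right); points are the vehicle (grey), TGFβ (red) and 10 min (blue) lists and error bars 95% Wilson intervals. For lincRNA windows the vehicle share goes from 7.38% in the lowest bin to 57.0% at a ratio of 0.6 to 0.8.

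Short motif words were counted in the promoters as a further description of their sequence. In the 300 bp promoter the GC box was found at 51.4% of lincRNA and 68.6% of protein-coding TSS with a region in all 3 lists. It was found at 17.4% and 20.6% of those with a region in none. Over all TSS it was found at 25.8% of lincRNA and 40.3% of protein-coding TSS. The ETS word CCGGAAGT was found at 2.85% and 4.57%, the AP-1 word at 5.06% and 4.37%, the CRE word TGACGTCA, bound by CREB and ATF proteins, at 2.03% of both, and the SMAD words CAGACA or GTCTAGAC at 26.2% and 20.1%. TATAAA on the sense strand, 40 to 20 bp upstream of the TSS, was found at 1.57% and 1.32%. NRF1 and CTCF consensus words were rare, at 0.368% and 0.460% of lincRNA TSS and 1.06% and 0.547% of protein-coding TSS. All words but TATAAA were searched on both strands, and none contains another. A word of this length is met by chance more often in sequence of matching composition, so these shares also move with GC content, whose median was 49.4% at lincRNA and 54.3% at protein-coding TSS.

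In the accessible regions themselves, searched within 200 bp of their centre, AP-1 words were in a larger share of TGFβ regions at lincRNA than at protein-coding TSS, with intervals that do not overlap. They were found in 36 of 191 TGFβ regions at lincRNA TSS, 18.8% (13.9 to 24.99), against 7.96% at protein-coding TSS (7.45 to 8.50) and 41.0% at regions elsewhere (40.5 to 41.6). In the vehicle list the values were 10.8% (6.52 to 17.3) and 6.12% (5.63 to 6.65), with overlapping intervals, and at 10 min 13.1% (8.81 to 19.03) and 6.39% (5.93 to 6.90). Among the 64 lincRNA regions without a vehicle region, 20 held an AP-1 word, 31.3% (21.2 to 43.4), and among the 127 with one, 16 did, 12.6% (7.91 to 19.5). SMAD words went the same way, in 42.2% (30.9 to 54.4) and 22.8% (16.4 to 30.9). The GC box went the opposite way, in 35.9% (25.3 to 48.2) and 59.1% (50.4 to 67.2). At protein-coding TSS the AP-1 shares were 16.1% without and 5.90% with a vehicle region, and elsewhere they were 39.2% and 44.4%. For SMAD words they were 29.5% and 19.3% at protein-coding TSS and 41.8% and 37.0% elsewhere. For the GC box they were 49.3% and 74.6% at protein-coding TSS and 7.79% and 12.5% elsewhere. The direction for these words was thus not particular to lincRNA TSS. The order at lincRNA TSS was thus that of protein-coding TSS, at higher AP-1 levels. Of the 91 TSS windows called with TGFβ and not with vehicle, 8 held an AP-1 word in the 300 bp promoter, 8.79% (4.52 to 16.4), beside 8.17% (5.17 to 12.7) of TSS with a region in all 3 lists and 5.06% of all lincRNA TSS. Among the 8 were D730003I15Rik, Gm13429 and Gm12976.

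**Figure D5:**
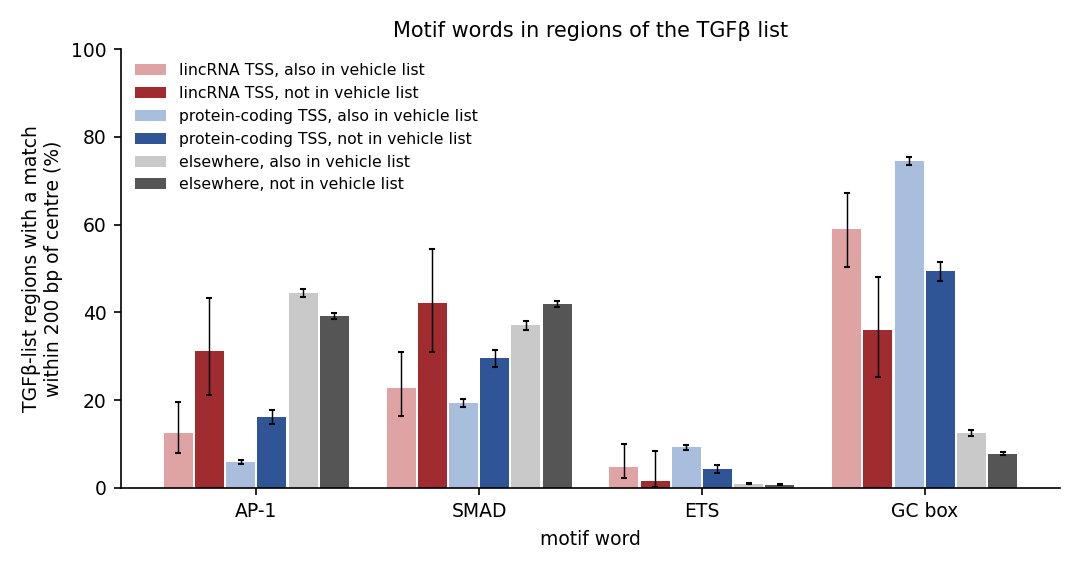
Share of TGFβ-list regions (%, y axis) with a match to each motif word (x axis) within 200 bp of the region's centre, at lincRNA TSS (red), protein-coding TSS (blue) and elsewhere (grey), light for regions that overlap a vehicle region and dark for those that do not; error bars are 95% Wilson intervals. At lincRNA TSS the AP-1 word is in 12.6% of regions with and 31.3% of regions without a vehicle region.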

How the data were processed

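ATAC-seq peak lists of NMuMG cells were analysed, 3 lists for 4 samples. Per the study's methods the authors ran the ENCODE ATAC-seq pipeline on mm9, called peaks with MACS2 2.1.2 (the labels also name deepTools) and kept peaks by the irreproducible discovery rate (IDR) between replicates. The score in the deposited lists is the authors' scaled IDR, from 540 to a cap of 1000, and was compared within a list only. What served as replicates was not settled. How Tn5 cut positions were shifted for these peaks is not given in the sources used here.

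Intervals under 150 bp were dropped and gaps under 1000 bp merged, after the study's methods. All regions lie within the NCBIM37 chromosomes. A gene counted when a region overlapped a kept TSS window by at least 1 bp. GENCODE vM1 was used, whereas the study used UCSC knownGene. Python 3.11.15, NumPy 2.4.6 and SciPy 1.17.1 computed counts and Wilson intervals. The interval code was tested on simulated lists. No test between conditions was run. A background of antisense genes and a repeat share had been planned. The annotation has no antisense type and the genome file no repeat mask, so neither was computed. Members, gene lists and motif words were chosen with earlier results of these data known. Named genes were the well-studied list, the 3 highest scores per pattern of lists (ties by width, then position), the 3 widest regions per list, and, with a region, neighbours of response genes within 50 kb and hosts of miRNAs or snoRNAs. Genes named for an AP-1 word were chosen after their values were seen. The alternatives tried are given below.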

Additional observations from a re-analysis of the deposited data

How the results depend on the processing

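The 7 main values (the share of genes with a region in each list, and the counts in all 3 lists, in TGFβ and not vehicle, in vehicle and not TGFβ, and at 10 min alone) were recomputed under 17 alternatives, 3 of them chosen after seeing the data. Of 119 values, 78 stayed within the interval of the share or within 1.5 times the count, and 41 moved; the causes were not tested. The TGFβ share stayed above the vehicle share in 16 of 17. The exception was the reduction of the longer lists to the length of the vehicle list, which gave a TGFβ share of 17.2% and counts of 17 (TGFβ, not vehicle) and 24 (vehicle, not TGFβ). A TSS window of 200 bp gave shares of 14.4%, 19.5% and 18.7% (vehicle, TGFβ, 10 min) and 41 TGFβ, not vehicle, genes, and one of 500 bp gave 15.4%, 22.0% and 19.5% and 2 vehicle, not TGFβ, genes. A minimum width of 300 bp gave 15.1%, 19.5% and 20.1%, so that the 10 min share exceeded the TGFβ share, and 12 vehicle, not TGFβ, genes. Peaks with at least the median score of their list gave 10.6%, 14.9% and 12.4%, with 64 genes in all 3 lists, 33 TGFβ, not vehicle, and 2 vehicle, not TGFβ. An overlap of at least 200 bp gave a TGFβ share of 22.4% and 7 vehicle, not TGFβ, genes. Without the exclusion the shares were 37.9%, 46.3% and 44.0%, with 465 genes in all 3 lists, 114 TGFβ, not vehicle, and 7 vehicle, not TGFβ. An exclusion of 5000 bp left 1 vehicle, not TGFβ, gene and 9 at 10 min alone. Genes that overlap no protein-coding gene gave 26.8%, 35.1% and 33.2%, with 30 TGFβ, not vehicle, and 8 at 10 min alone. Counting windows gave 208 in all 3 lists and 9 vehicle, not TGFβ. Leaving out genes that lost a TSS gave 2 vehicle, not TGFβ, genes, and leaving out regions near a protein-coding TSS gave 2 and a 10 min share of 20.2%. No paired analysis was possible because the lists carry no replicates. Without read counts, a promoter in no list may be open below the reach of these libraries, and presence in 1 list is not a measured difference in accessibility.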
